A study of Mus musculus with 20 samples.

Results

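The comparison described here sets gastrocnemius, a calf muscle of the hind limb, against triceps, a muscle of the fore limb, within mice that carried the human SOD1G93A transgene, called SOD1 mice below. Of the 20 arrays of the study, 8 belonged to it: the 4 titled as SOD1G93A gastrocnemius at 14 weeks and the 4 titled as SOD1G93A triceps at 14 weeks. The same muscles of non-transgenic mice (NTg, 4 arrays each) served to show which differences exist without the transgene. The 4 arrays of gastrocnemius after nerve crush contributed to the estimate of spread and to the mean signal by which probe sets were chosen. All mice of these groups were female C57BL/6 aged 14 weeks. The design text names 14 weeks as the symptomatic stage. It gives 4 mice per genotype as the source of both muscles, but no label ties an array number to a mouse. The labels name no promoter for the transgene. The mouse Sod1 probe set read 10.93 to 11.28 in SOD1 gastrocnemius and 10.47 to 10.87 in NTg gastrocnemius (log2 signal). Whether it detects the human transcript was not tested, so it serves as no check of the labels.

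SOD1G93A is a mutant form of superoxide dismutase that causes motor neuron disease in mice, with loss of motor axons and denervation of muscle fibres. Limb muscles of mice mix slow fibres, which contract slowly and rely on oxidative metabolism, with several kinds of fast fibres, and each kind uses its own set of myosins, troponins and calcium pumps. Fast motor units are known to lose their nerve supply earlier than slow ones in this disease. A gene counted as called where limma's adjusted p was under 0.05, and a difference is the mean log2 signal of gastrocnemius minus that of triceps, so that 1 is a doubling. In whole muscle, fewer fibres of a type and less RNA per fibre cannot be told apart.

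The slow-fibre genes carried the greatest differences between the muscles, and the promoters of 4 of them with a single start in the table are shown here beside that of the fast calcium pump gene Atp2a1. Each line holds the 150 bases before the start, 5′ to 3′ on the gene's strand, from RefSeq on GRCm38.p6. Capitals mark matches, on either strand, to TATAAA, a core promoter box, to the E-box CANNTG, which myogenic factors bind, to the M-CAT element CATTCC and to the motif of MEF2.
Tnnc1: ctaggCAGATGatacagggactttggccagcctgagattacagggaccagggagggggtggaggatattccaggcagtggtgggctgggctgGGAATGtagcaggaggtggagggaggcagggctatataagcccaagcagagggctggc
Myl3: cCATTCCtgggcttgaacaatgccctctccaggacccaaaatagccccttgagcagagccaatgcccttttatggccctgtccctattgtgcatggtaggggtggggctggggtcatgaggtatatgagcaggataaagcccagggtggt
Tnnt1: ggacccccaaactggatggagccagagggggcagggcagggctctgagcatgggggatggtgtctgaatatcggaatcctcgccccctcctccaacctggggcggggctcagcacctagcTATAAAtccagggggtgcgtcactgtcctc
Myoz2: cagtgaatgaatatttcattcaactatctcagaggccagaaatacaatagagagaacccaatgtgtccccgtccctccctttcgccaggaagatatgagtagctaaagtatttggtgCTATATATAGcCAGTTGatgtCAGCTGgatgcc
Atp2a1: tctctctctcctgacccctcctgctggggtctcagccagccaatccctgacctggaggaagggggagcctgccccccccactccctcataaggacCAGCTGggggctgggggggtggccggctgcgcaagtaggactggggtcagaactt
The stretches lie at chr14:31208162-31208311 (plus strand), chr9:110763528-110763677 (plus), chr7:4515976-4516125 (minus), chr3:123034988-123035137 (minus) and chr7:126463074-126463223 (minus), before exon 1 of each gene. Over the 250 bases before the start, an E-box match was in all 15 windows of the 10 slow-fibre sarcomere genes and in 6 of 8 windows of fast-fibre sarcomere genes, against 66.2% of all 32851 windows. A TATAAA match was in 3 of the 15 and 4 of the 8, against 12.4%. CATTCC was in 3 of 15 and 5 of 8 (12.6% of all windows), and the MEF2 motif in 1 of 15 and 2 of 8 (2.92%). Matches of these motifs may overlap each other, and these counts describe letters only.

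In SOD1 mice 231 of 4832 genes were called between the muscles (4.78%), 93 higher (1.92%) and 138 lower (2.86%) in gastrocnemius. Over probe sets the count was 364 of 7523 (4.84%), with 139 higher, and subtracting each array's 75th percentile turned that split into 166 higher of 278. The same comparison in NTg mice called 50 genes (1.03%), 40 of them higher (0.828%) and 10 lower (0.207%), and 129 probe sets (1.71%). The higher and lower calls differed in size: 49 of the 93 higher genes reached a difference of 1, but 7 of the 138 lower genes reached -1. For 496 genes (10.3%) the 4 and 4 SOD1 arrays did not overlap, and for 451 (9.33%) the NTg arrays did not.

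Arrays of 1 group correlated with each other at 0.94 to 0.98 in SOD1 gastrocnemius and at 0.92 to 0.97 in SOD1 triceps over the probe sets tested. Within SOD1 triceps, replicate 2 had the lowest signal of Atp2a1, Pvalb, Myh2 and Tnnc2, and replicate 4 the highest of Myh7, Tnnc1, Tnni1 and Tnnt1. The number of probe sets called rested on these arrays: it was 45 without triceps replicate 2 and 828 without triceps replicate 4. Fitted alone, the 8 SOD1 arrays gave 54 calls, and 32 of the 55 SOD1 calls of named genes were lost. The number was 78 without triceps replicate 1, 66 without gastrocnemius replicate 2, 191 without gastrocnemius replicate 3, and 151 without gastrocnemius replicate 4. For NTg mice the number was 327 without triceps replicate 1 and between 30 and 81 when any other array was left out. NTg triceps replicate 4 has a description naming gastrocnemius, while its title and source name triceps, and it was grouped by its title. Its Myh7 (3.64), Tnnc1 (4.53) and Myl2 (5.39) lay below the lowest NTg gastrocnemius values (9.95, 10.14 and 11.10).

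Of the 231 genes called in SOD1 mice, 26 were also called in NTg mice, all in the same direction. These were 11.3% of the SOD1 calls and 52% of the NTg calls, and 23 of the 26 were higher in gastrocnemius. Of the 26, 12 belong to the slow-fibre lists. Of the 231 genes, 201 had the same sign in NTg mice, called there or not. Across the 4832 genes the differences in both genotypes, which share no array, correlated at 0.61, and at 0.41 without the slow-fibre genes (genes are not independent replicates). No gene and no probe set was called for the difference between the genotypes, which limma tested as an interaction (0%), with 395 genes and 710 probe sets at an unadjusted p under 0.05. Leaving out NTg triceps replicate 1 gave 34 probe sets called and leaving out SOD1 gastrocnemius replicate 1 gave 1. So a call in 1 genotype alone does not show that a difference was gained or lost with the transgene.

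**Figure D1:**
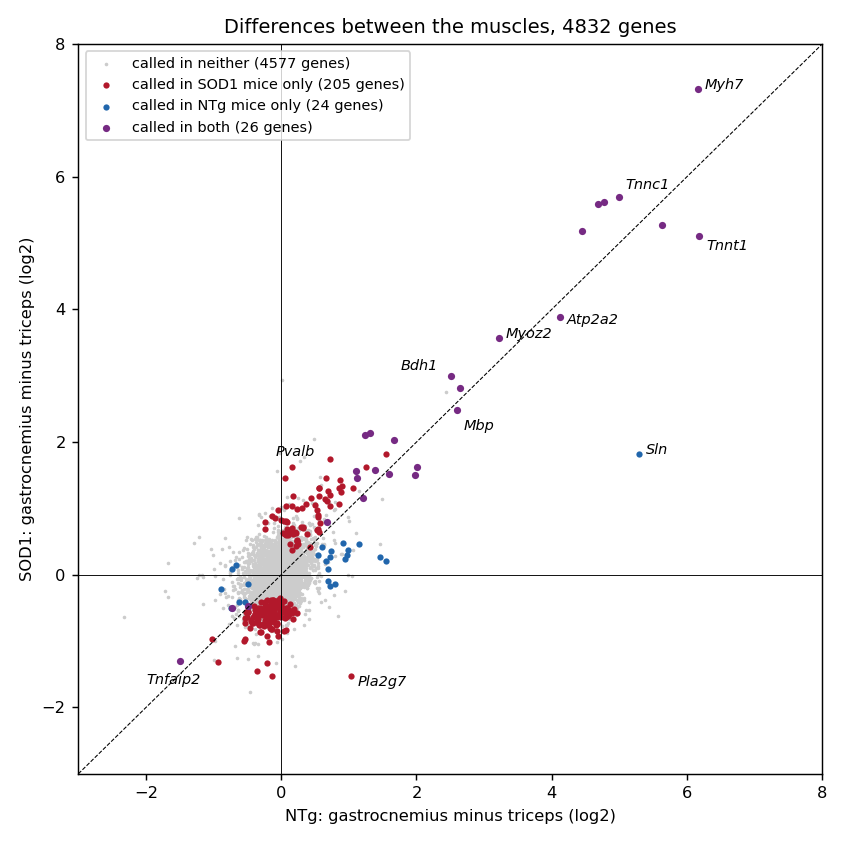
Each point is 1 of 4832 genes, with the gastrocnemius minus triceps difference (log2) in NTg mice on the x axis and in SOD1 mice on the y axis; the dashed line marks equal differences and colours mark limma calls. The 26 genes called in both run along the dashed line up to Myh7 at 6.16 and 7.32, while Sln sits at 5.29 in NTg and 1.82 in SOD1 mice.

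The slow-fibre sarcomere genes were far higher in gastrocnemius than in triceps of SOD1 mice, and the same 9 of 10 tested members were called in NTg mice. Of all genes, 1.92% were called higher in SOD1 gastrocnemius and 0.828% in NTg gastrocnemius. In SOD1 mice their median difference was 5.23, against -0.03 over all genes tested, and in NTg mice it was 4.73. Myh7, the slow myosin heavy chain, measured 12.12, 12.02, 10.53 and 12.15 in the SOD1 gastrocnemius arrays 1 to 4 and 2.17, 3.36, 5.45 and 6.55 in the triceps arrays. All gastrocnemius arrays lay above all triceps arrays, though replicate 3 was lower than the other gastrocnemius arrays. The difference was 7.32 ± 1.07 (SE, n = 4 and 4, adjusted p = 0.000562, limma), and in NTg mice it was 6.16 ± 1.07 (adjusted p = 0.00513). Such low triceps signals make the fold uncertain: with every value below a log2 of 5 raised to 5 the SOD1 difference was 6.20 and the NTg difference 5.03.

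The thin filament showed the same pattern in the slow troponins and tropomyosin. Tnnc1, the troponin C of slow and cardiac muscle, measured 11.96, 11.79, 10.98 and 11.72 in SOD1 gastrocnemius and 4.87, 5.44, 5.97 and 7.38 in triceps. Its difference was 5.70 ± 0.66 in SOD1 mice (adjusted p = 3.69e-05) and 4.99 ± 0.66 in NTg mice (adjusted p = 0.000303), with no overlap in either. Tpm3, a slow tropomyosin, differed by 5.58 in SOD1 mice (adjusted p = 6.02e-06) and 4.68 in NTg mice (adjusted p = 8.38e-05). Of the other Tpm3 probe sets, 1 gave 5.52 and 4.67, while a further 2 gave 0.64 and 0.39 in SOD1 mice.

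Tnnt1 and Tnni1, the slow troponins T and I, were members in which the SOD1 triceps arrays varied widely. Tnnt1 measured 11.39, 11.59, 10.44 and 11.53 in SOD1 gastrocnemius and 4.13, 4.80, 5.70 and 9.92 in triceps, where replicate 4 came near the lowest gastrocnemius array. Tnni1 measured 10.75, 11.10, 10.05 and 11.29 in gastrocnemius and 2.78, 4.72, 5.52 and 9.09 in triceps, again with replicate 4 on top. Both genes still had groups that did not overlap. Tnnt1 differed by 5.10 ± 1.10 (adjusted p = 0.0163) against 6.18 in NTg mice, and Tnni1 by 5.27 ± 1.08 (adjusted p = 0.0127) against 5.62. Their SOD1 calls missed the threshold without triceps replicate 1 (adjusted p = 0.0622 and 0.0557) and without triceps replicate 2 (0.0883 and 0.0656), Tnnt1 also without gastrocnemius replicate 2 (0.0573). They also missed it when the 8 SOD1 arrays were fitted alone (0.0553 and 0.0509). The NTg call of Tnni1 was lost without NTg triceps replicate 2 or 4 or gastrocnemius replicate 3 (adjusted p up to 0.0604).

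The slow myosin light chains separated the muscles in both genotypes. Myl2, the regulatory light chain, measured 12.29, 12.21, 11.62 and 11.78 in SOD1 gastrocnemius and 5.59, 5.72, 6.17 and 7.93 in triceps, a difference of 5.62 ± 0.64 (adjusted p = 3.25e-05), against 4.78 in NTg mice. Myl3, the essential light chain, measured 12.01, 12.00, 10.72 and 11.56 and 6.23, 5.88, 6.80 and 6.66, a difference of 5.18 ± 0.45 (adjusted p = 1.2e-06), against 4.44 in NTg mice (adjusted p = 1.87e-05). In both genes every gastrocnemius array stood far above every triceps array.

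Z-disc proteins of the slow list differed less. Myoz2, a Z-disc protein that binds calcineurin, measured 10.87, 11.03, 10.42 and 11.24 in SOD1 gastrocnemius and 7.0, 6.29, 7.17 and 8.82 in triceps, a difference of 3.57 ± 0.46 (adjusted p = 0.000149) against 3.21 in NTg mice. Ankrd2, a stretch-responsive ankyrin repeat protein, differed by 2.81 (adjusted p = 0.0172) and 2.65 (adjusted p = 0.0316). Its SOD1 call missed the threshold without triceps replicate 1, gastrocnemius replicate 2 or triceps replicate 2 (adjusted p = 0.0968 in the last case), and its NTg call without 5 of the 8 NTg arrays in turn (adjusted p up to 0.125). Csrp3, a muscle LIM protein, was the member that was not called: triceps replicate 4 read 10.99, inside the gastrocnemius range of 9.83 to 11.39, and the difference of 2.75 had an adjusted p of 0.059.

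Whether the slow-fibre differences were kept can be read from the interaction, the SOD1 difference minus the NTg difference. For Myh7 it was 1.16 with a 95% interval of -1.99 to 4.31, and for Tnnt1 -1.08 (-4.32 to 2.16). The more precise members gave 0.74 (-0.60 to 2.08) for Myl3 and 0.90 (-0.74 to 2.54) for Tpm3. The median interaction over the 10 genes was 0.53, with 8 positive, and it ranged from 0.16 to 0.99 as single arrays were left out. The intervals hold 0 for all 10 genes and are wide, so equal differences in both genotypes are not shown either. Without SOD1 triceps replicate 1 or replicate 2, 6 of the 10 were called in SOD1 mice, and without replicate 4 all 10. In NTg mice 7 were called without NTg triceps replicate 2, triceps replicate 4 or gastrocnemius replicate 3.

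**Figure D2:**
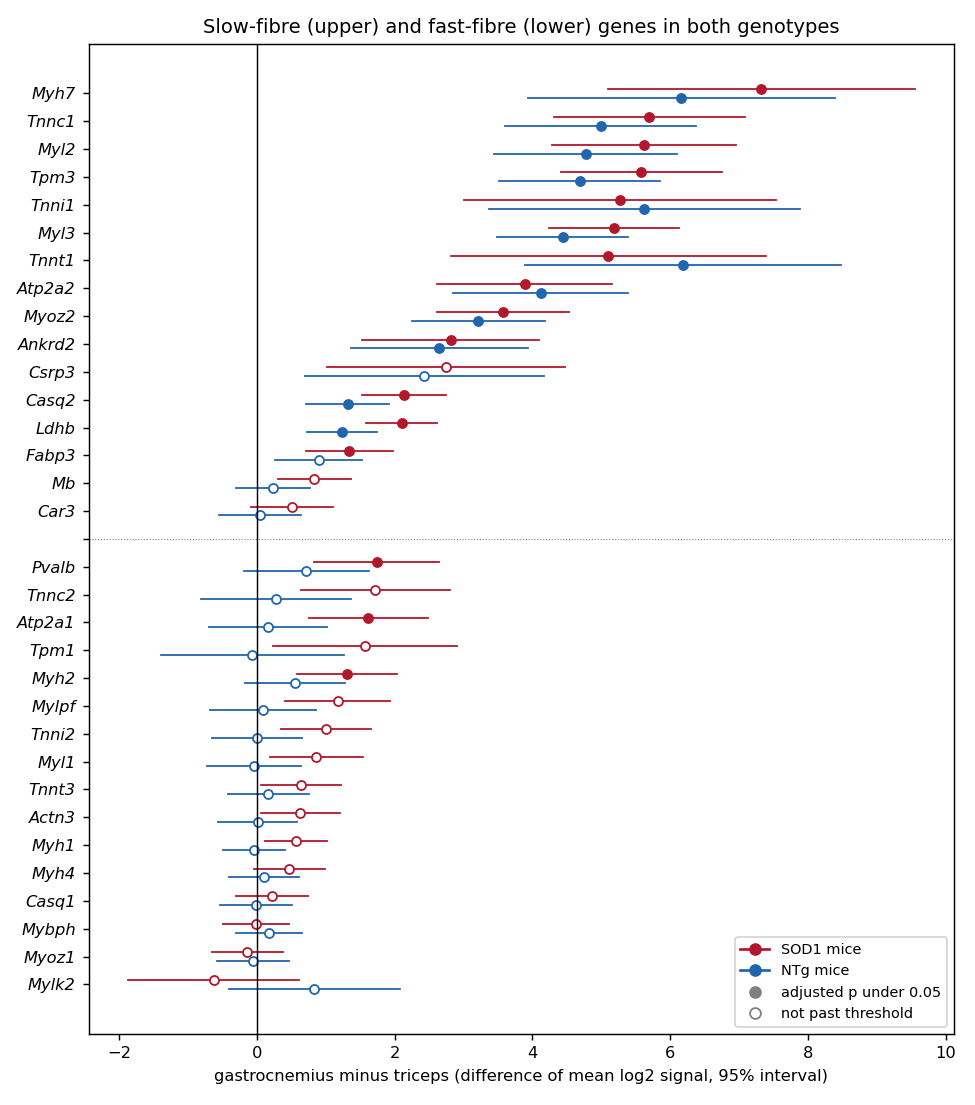
For 16 slow-fibre genes (upper) and 16 fast-fibre genes (lower), points give gastrocnemius minus triceps in mean log2 signal with 95% intervals from limma, red for SOD1 and blue for NTg mice, filled where the adjusted p was under 0.05. Slow-fibre points run from 7.32 for Myh7 to 0.51 for Car3 in SOD1 mice, and in NTg mice down to 0.05 for Car3. Most fast-fibre points of NTg mice lie near 0 and most of those of SOD1 mice to the right of them.

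Slow-fibre genes of calcium handling and of the cytosol gave 4 calls in SOD1 mice and 3 in NTg mice among 6 tested, all higher in gastrocnemius. Of all genes, 1.92% were called higher there in SOD1 mice and 0.828% in NTg mice. Atp2a2, the calcium pump of slow and cardiac muscle, measured 11.86, 11.95, 10.96 and 11.74 in SOD1 gastrocnemius and 6.48, 7.0, 7.60 and 9.89 in triceps, with replicate 4 the highest triceps array. The groups did not overlap, and the difference was 3.89 ± 0.61 (adjusted p = 0.00121) against 4.12 in NTg mice (adjusted p = 0.000935). Casq2, the calsequestrin of slow and cardiac muscle, measured 8.44, 8.78, 8.60 and 9.06 and 6.29, 6.27, 6.45 and 7.31, a difference of 2.14 ± 0.29 (adjusted p = 0.000258). In NTg mice Casq2 differed by 1.32, and the interaction was 0.82 (-0.04 to 1.67). Its NTg call was lost without 5 of the 8 NTg arrays in turn and with those 8 fitted alone (adjusted p = 0.0593). The 3 NTg calls of the list became 1 without NTg triceps replicate 2, triceps replicate 4 or gastrocnemius replicate 3.

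Ldhb, the lactate dehydrogenase subunit of oxidative tissues, measured 10.46, 10.57, 10.27 and 10.22 in SOD1 gastrocnemius and 8.56, 7.72, 8.02 and 8.82 in triceps. It differed by 2.10 ± 0.24 in SOD1 mice (adjusted p = 3.69e-05) and by 1.24 in NTg mice (adjusted p = 0.0141), with 3 further probe sets between 1.89 and 2.17 in SOD1 mice. Its interaction of 0.86 (0.14 to 1.58) had an unadjusted p of 0.0215 and was not called. The NTg call of Ldhb was lost without NTg triceps replicate 2 or 4 or gastrocnemius replicate 3 (adjusted p up to 0.0666). Fabp3, a fatty acid carrier, differed by 1.34 (adjusted p = 0.0215) and 0.90 (adjusted p = 0.148), and its call was lost without SOD1 triceps replicate 1, gastrocnemius replicate 2 or triceps replicate 2. Myoglobin (Mb, 0.84, adjusted p = 0.064) and carbonic anhydrase 3 (Car3, 0.51, adjusted p = 0.299) did not pass. Pln, the inhibitor of the slow calcium pump, lay under the filter on low signals, with means between 4.11 and 4.69 in these groups.

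Sln encodes sarcolipin, a small inhibitor of the calcium pumps, and its interaction was the greatest in size among the genes named here. In NTg mice it measured 7.99, 5.70, 8.63 and 7.70 in gastrocnemius and 0.59, 3.10, 2.27 and 2.88 in triceps, and in SOD1 mice 11.76, 12.78, 12.66 and 12.31 and 9.52, 10.56, 10.43 and 11.71. Every SOD1 array of either muscle thus lay above every NTg array. Gastrocnemius stayed above triceps with no overlap in both genotypes, but the difference was 5.29 ± 0.61 in NTg mice (adjusted p = 6.39e-05) and 1.82 ± 0.61 in SOD1 mice (adjusted p = 0.0884). The interaction was -3.47 (-5.27 to -1.67, unadjusted p = 0.000678, adjusted p = 0.386). It rests on the dim NTg triceps values: with all values below a log2 of 5 raised to 5 it was -0.68 (unadjusted p = 0.37). Sln was among the genes named for the size of the interaction, so the interaction p-value is no separate evidence.

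Fast-fibre genes had smaller differences between the muscles of SOD1 mice, and the called ones were higher in gastrocnemius, as the slow ones were. Among 13 fast-fibre sarcomere genes only Myh2 was called in SOD1 mice and none in NTg mice, with medians of 0.65 and 0.09. Of all genes, 1.92% were called higher in SOD1 gastrocnemius and 0.828% in NTg gastrocnemius, so few calls would be reached in a list of this size at those shares. Quantile normalization gave a median of 0.23 in SOD1 mice and 3 calls. Of the 13 interactions 10 were positive, with a median of 0.61, and none was called. Myh2, the myosin of fast oxidative fibres, measured 12.81, 12.39, 12.68 and 11.60 in SOD1 gastrocnemius and 11.56, 10.10, 11.28 and 11.30 in triceps. The groups touched but did not overlap, and the difference was 1.31 ± 0.35 (adjusted p = 0.0368) against 0.55 in NTg mice (adjusted p = 0.513). The myosins of the fastest fibres did not pass: Myh1 differed by 0.57 (adjusted p = 0.13) and Myh4 by 0.47 (adjusted p = 0.269).

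Fast troponins and light chains stayed short of the threshold by a small margin. Tnnc2, the fast troponin C, measured 12.29, 12.23, 12.36 and 11.47 in SOD1 gastrocnemius and 10.89, 8.52, 11.60 and 10.46 in triceps. With triceps replicate 2 far below the others, its difference of 1.72 had an adjusted p of 0.0592. Tnni2, the fast troponin I, differed by 1.01 (adjusted p = 0.0676), and a second, dimmer probe set of the gene by 2.27 (adjusted p = 0.0365). Mylpf, the fast regulatory light chain, differed by 1.17 (adjusted p = 0.0693) against 0.09 in NTg mice. Mylk2, the kinase of that light chain, went the other way at -0.63 in SOD1 mice against 0.84 in NTg mice, with an interval of the interaction from -3.22 to 0.30.

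Of the 3 fast-fibre calcium genes 2 were called higher in SOD1 mice, where 1.92% of all genes were. None was called in NTg mice, where 0.828% of all genes were called higher. Atp2a1, the fast calcium pump, measured 12.56, 12.46, 12.71 and 12.01 in SOD1 gastrocnemius and 11.17, 9.69, 11.65 and 10.75 in triceps. The groups did not overlap, and the difference was 1.62 ± 0.41 (adjusted p = 0.0322) against 0.16 in NTg mice. Pvalb, the calcium buffer parvalbumin of fast fibres, measured 12.61, 12.48, 12.46 and 11.99 and 11.13, 9.13, 11.76 and 10.56, a difference of 1.74 ± 0.43 (adjusted p = 0.0301) against 0.72. Casq1, the fast calsequestrin, differed by 0.22 (adjusted p = 0.66). The interaction had an unadjusted p of 0.0217 for Atp2a1 and 0.112 for Pvalb. The calls of Atp2a1, Pvalb and Myh2 were all lost without gastrocnemius replicate 1, 2 or 3 or triceps replicate 1 or 2, with adjusted p of 0.147, 0.13 and 0.173 without triceps replicate 2. They were lost too when the 8 SOD1 arrays were fitted alone (0.0699, 0.0975 and 0.0956).

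Values of muscle fibre markers stand beside those of the fast genes here. The marker list also holds the fast myosins Myh1 and Myh4 and the slow-list gene Mb, so the lists share members. All 12 tested markers of the skeletal muscle fibre had a positive SOD1 difference and none was called, with a median of 0.47 against 0.10 in NTg mice. After quantile normalization the medians were 0.10 and 0.06, with 1 call in SOD1 mice, and the number of positive interactions went from 12 to 7. Ckm, muscle creatine kinase, measured 12.33, 12.35, 12.42 and 11.86 in SOD1 gastrocnemius and 11.47, 7.27, 11.94 and 10.95 in triceps, where replicate 2 stood apart. Acta1, skeletal actin, read 11.83, 10.99, 11.86 and 11.07 in triceps against 12.45, 12.52, 12.51 and 11.62 in gastrocnemius, and the difference of 0.84 did not pass (adjusted p = 0.115). The part of these genes, and of triceps replicate 2, in the fast-fibre differences was not tested beyond leaving out that array.

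**Figure D3:**
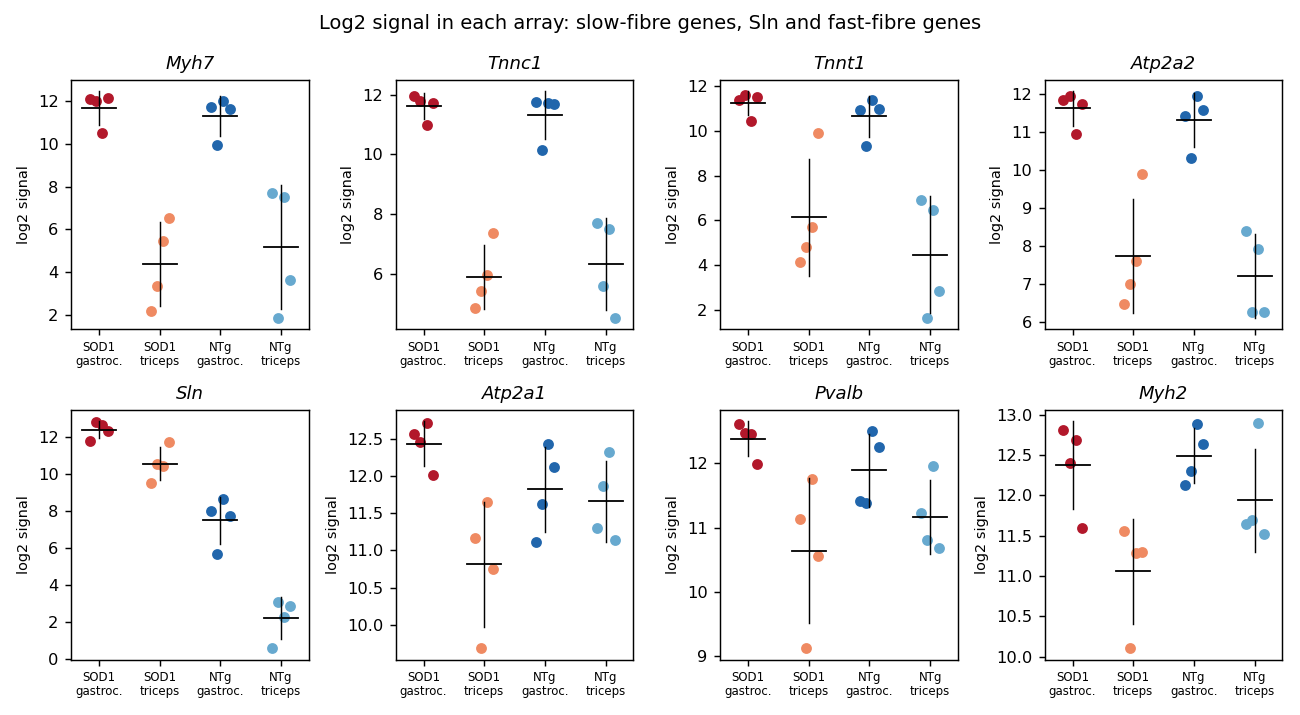
Log2 signal of 8 genes in the 4 arrays of each group (points), with group mean (horizontal line) and SD (vertical line). For Myh7, Tnnc1, Tnnt1 and Atp2a2 gastrocnemius lies above triceps in both genotypes; Sln reads 0.59 to 3.10 in NTg triceps and 9.52 to 11.71 in SOD1 triceps; for Atp2a1, Pvalb and Myh2 the SOD1 triceps arrays lie below SOD1 gastrocnemius, with replicate 2 at 9.69, 9.13 and 10.10.

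Among 18 tested regulators of fibre type, 2 were called lower in SOD1 gastrocnemius, where 2.86% of all genes were called lower. None was called in NTg mice. Sox6, a repressor of slow-fibre genes, measured 7.58, 6.97, 7.32 and 6.92 in SOD1 gastrocnemius and 8.05, 8.31, 7.89 and 7.53 in triceps. Its groups overlapped slightly, and the difference was -0.75 ± 0.17 (adjusted p = 0.0242) against -0.27 in NTg mice. Ppp3r1, the regulatory subunit of calcineurin, differed by -0.45 (adjusted p = 0.0334) and -0.23. Both calls were lost without triceps replicate 2 (adjusted p = 0.116 and 0.149) and without triceps replicate 1 or gastrocnemius replicates 2 or 4, and that of Ppp3r1 also without gastrocnemius replicate 3 and after quantile or 75th percentile scaling. The median of the list was -0.12 in SOD1 mice and 0.01 in NTg mice.

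Oxidative enzymes gave 3 calls among 36 genes of the TCA cycle and fatty acid oxidation, all higher in SOD1 gastrocnemius. Over all genes 1.92% were called higher there. Idh2, mitochondrial isocitrate dehydrogenase, measured 9.95, 10.05, 9.30 and 10.10 in gastrocnemius and 8.52, 8.12, 7.67 and 8.61 in triceps, a difference of 1.62 ± 0.39 (adjusted p = 0.0278) against 1.25 in NTg mice (adjusted p = 0.111). Slc25a20, the carnitine carrier, differed by 0.79 (adjusted p = 0.0122) and 0.08, though a dimmer probe set gave 0.23. Hadhb, a subunit of the trifunctional protein, differed by 0.51 (adjusted p = 0.0299) and 0.23, with 0.09 in its other probe set. Without triceps replicate 2 none of the 3 was called (adjusted p from 0.0732 to 0.123), and each was lost without gastrocnemius replicate 2 as well. None of 73 respiratory chain genes was called. Of the 73, 61 were positive in SOD1 mice, 36 in NTg mice and 69 for the interaction, against 45.7%, 43.4% and 50.6% of all genes. These counts depend on the scaling: the median was 0.20 in SOD1 mice and 0.22 for the interaction, and after quantile normalization 0.04 and 0.05 with 41 positive interactions.

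Glycolysis and glycogen genes had medians of -0.02 in SOD1 and 0.03 in NTg mice over 27 genes. In SOD1 mice 2 were called, both lower in gastrocnemius, where 2.86% of all genes were called lower. The SOD1 median was -0.25 after quantile normalization and 0.04 with the 75th percentile subtracted. Gpd2, the mitochondrial glycerol-3-phosphate dehydrogenase, measured 8.12, 7.57, 7.69 and 7.20 in SOD1 gastrocnemius and 8.72, 8.76, 8.48 and 8.03 in triceps, with a slight overlap. Its difference was -0.85 ± 0.18 (adjusted p = 0.0147) against 0.05 in NTg mice. The interaction of -0.90 (-1.44 to -0.37, unadjusted p = 0.00213) was not called. Gpd2 was named for its SOD1 call, and the interaction contains that difference, so this p-value is no separate evidence. Phkb, a regulatory subunit of phosphorylase kinase, differed by -0.62 (adjusted p = 0.0318) and 0.09. Both calls were lost without triceps replicate 2 (adjusted p = 0.0812 and 0.141), triceps replicate 1 or gastrocnemius replicate 2, and that of Phkb also without gastrocnemius replicates 3 or 4 or with 75th percentile scaling.

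Outside the slow-fibre lists 14 genes were called in both genotypes. Bdh1, the mitochondrial enzyme of ketone body use, measured 7.48, 7.65, 6.81 and 7.61 in SOD1 gastrocnemius and 4.66, 3.22, 4.79 and 4.92 in triceps, and its difference of 2.99 ± 0.37 (adjusted p = 8.11e-05) stood beside 2.51 in NTg mice (adjusted p = 0.000935). Hspb7, a small heat shock protein of heart and muscle, differed by 1.51 (adjusted p = 0.034) and 1.98 (adjusted p = 0.0144). Further shared genes, named after their values were seen, were Pdlim1 (2.04 and 1.67), Lmod2 (1.62 and 2.01), Actn2 (1.57 and 1.11) and Lmcd1 (1.57 and 1.38), which encode sarcomere or Z-disc proteins. Further higher ones were Fxyd6, Homer2, Pla2g12a and Dnaja4, between 0.79 and 1.52 in SOD1 mice, and Mbp. The Bdh1 call held without any 1 of the 8 SOD1 arrays, while Hspb7 lost its SOD1 call without 6 of the 8 arrays in turn (adjusted p = 0.147 without triceps replicate 2) and its NTg call without 3 of the 8 NTg arrays.

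Mbp, the myelin basic protein of Schwann cells, was higher in gastrocnemius in both genotypes. It measured 8.65, 6.57, 9.30 and 8.75 in SOD1 gastrocnemius and 5.63, 6.12, 5.98 and 5.60 in triceps, so that gastrocnemius replicate 2 was close to the triceps arrays. The difference was 2.48 ± 0.52 (adjusted p = 0.0144) and 2.60 in NTg mice (adjusted p = 0.015), where the call was lost without triceps replicate 2 or 4. Pmp22, a peripheral myelin protein that other cells make too, differed by 1.31 (adjusted p = 0.0295) and 1.06 (adjusted p = 0.101). Of the Schwann cell and nerve list 6 of 20 genes were on the array, and their summed linear signal was 583 to 1462 in SOD1 gastrocnemius, 317 to 468 in SOD1 triceps, 1131 to 1546 in NTg gastrocnemius and 443 to 510 in NTg triceps. The Pmp22 call was lost without 5 of the 8 SOD1 arrays in turn (adjusted p = 0.104 without triceps replicate 2).

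The genes lower in gastrocnemius and called in both genotypes were 3. Tnfaip2, a gene induced by tumour necrosis factor, measured 7.26, 7.69, 7.62 and 6.67 in SOD1 gastrocnemius and 8.24, 9.23, 8.97 and 8.01 in triceps. Its difference was -1.30 ± 0.34 (adjusted p = 0.0338) and -1.49 in NTg mice (adjusted p = 0.0292), with no overlap in either, and a dimmer probe set gave -0.61 and -1.21. The others were Lrpap1 (-0.49 and -0.72), a chaperone of lipoprotein receptors, whose other probe sets gave -0.17 and 0.15 in SOD1 mice, and Xpo7 (-0.47 and -0.49). Gpx3, a secreted glutathione peroxidase, had like differences of -0.97 (adjusted p = 0.0463) and -1.02 (adjusted p = 0.0653), and was called in SOD1 mice. Without triceps replicate 2 the SOD1 calls of Tnfaip2, Lrpap1 and Gpx3 were lost (adjusted p = 0.149, 0.13 and 0.123), and in all they were lost without 6, 5 and 7 of the 8 arrays in turn. With the 75th percentile subtracted Lrpap1 and Gpx3 were not called (0.0605 and 0.0697), nor was Lrpap1 after quantile normalization (0.0686). The NTg call of Tnfaip2 was lost without 6 of the 8 NTg arrays in turn (adjusted p up to 0.119).

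Several genes called lower in SOD1 gastrocnemius had small differences in NTg mice. Rbfox1, a splicing factor of muscle and neurons, measured 9.32, 9.24, 8.98 and 9.03 in SOD1 gastrocnemius and 10.03, 10.08, 9.89 and 9.76 in triceps. All triceps arrays lay higher, and the difference was -0.80 ± 0.11 (adjusted p = 0.000457) against -0.17 in NTg mice (adjusted p = 0.546). B3galnt2, a glycosyltransferase that modifies alpha-dystroglycan, measured 7.78, 7.73, 7.72 and 7.43 and 8.36, 8.91, 8.48 and 8.30, a difference of -0.85 ± 0.13 (adjusted p = 0.000676) against -0.06. A second probe set of it gave -0.98 and -0.48. The interaction was called for neither gene, with an unadjusted p of 0.000923 for Rbfox1 and 0.000249 for B3galnt2. The second B3galnt2 probe set gave an interaction of -0.49 (unadjusted p = 0.0488). Both genes were named for their SOD1 differences, which the interaction contains, so these p-values are no separate evidence.

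Pdzrn3, a ubiquitin ligase that acts at the neuromuscular junction, measured 8.25, 7.73, 7.86 and 7.95 in SOD1 gastrocnemius and 8.97, 9.15, 8.80 and 8.57 in triceps. It differed by -0.92 ± 0.15 (adjusted p = 0.00149) against -0.04 in NTg mice. The interaction of -0.88 (-1.31 to -0.44, unadjusted p = 0.000444) was not called. Pdzrn3 too was named for its SOD1 difference, which the interaction contains, so this p-value is no separate evidence. Reep1, an endoplasmic reticulum shaping protein mutated in hereditary spastic paraplegia, measured 8.15, 8.22, 7.99 and 7.73 and 8.75, 9.13, 8.84 and 8.66, a difference of -0.82 ± 0.13 (adjusted p = 0.00127) against -0.15. Tmem267, a membrane protein, differed by -1.33 (adjusted p = 0.00236) against -0.22, and its gastrocnemius values of 5.17, 4.87, 5.90 and 5.46 are dim. The calls of Rbfox1, B3galnt2, Pdzrn3, Reep1 and Tmem267 held when any 1 of the 8 SOD1 arrays was left out.

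Other named genes on this side were less stable. Gaa, the lysosomal enzyme that breaks down glycogen, differed by -0.92 (adjusted p = 0.00709) and -0.21, with -0.25 in its other probe set. Its call was kept without any single array but not in a fit of the 8 SOD1 arrays alone (adjusted p = 0.0699). Acyp1, an acylphosphatase, differed by -1.01 (adjusted p = 0.0147) and -0.17, with -1.17 and -0.39 in another probe set. Ube2r2 (a ubiquitin-conjugating enzyme), Rida (an enamine deaminase) and Slc40a1 (the iron exporter ferroportin) differed by -0.86, -0.83 and -0.80 in SOD1 mice. A dimmer Slc40a1 probe set gave only -0.13 there (adjusted p = 0.815). These 4 genes missed the threshold without triceps replicate 2 (adjusted p from 0.0805 to 0.134), and in all Acyp1 without 3, Ube2r2 without 6, Rida without 5 and Slc40a1 without 7 of the 8 arrays in turn.

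A further 3 genes of other functions were named because their interactions were among the largest with an unadjusted p under 0.01. Their interaction p-values are thus part of that rule and no separate evidence, and none was called. Pla2g7, a phospholipase that breaks down platelet-activating factor, measured 6.25, 5.11, 5.19 and 4.58 in SOD1 gastrocnemius and 7.36, 7.52, 7.02 and 5.34 in triceps, and 7.37, 7.88, 8.03 and 8.33 and 6.78, 6.59, 6.68 and 7.45 in NTg mice. Its SOD1 difference was -1.53 (adjusted p = 0.0456), while NTg mice had 1.03 (adjusted p = 0.259), so the sign differed. The interaction was -2.56 (-3.83 to -1.29, unadjusted p = 0.000442, adjusted p = 0.386). Tspan8, a tetraspanin, differed by -1.52 (adjusted p = 0.0172) and -0.13, with an interaction of -1.39 (unadjusted p = 0.00786). A dimmer Tspan8 probe set gave -0.73 in SOD1 mice (adjusted p = 0.122) and an interaction of -0.45 (unadjusted p = 0.256). The SOD1 calls of Pla2g7 and Tspan8 were lost without triceps replicate 2 (adjusted p = 0.191 and 0.0968) and in all without 6 and 4 of the 8 arrays in turn. With low values raised to a log2 of 5, Pla2g7 was not called (adjusted p = 0.0514).

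H2-Aa, a class II antigen-presenting molecule, was the third of these and was called in neither genotype. It differed by 0.38 in SOD1 mice and -1.04 in NTg mice, an interaction of 1.42 (0.40 to 2.45, unadjusted p = 0.00904). A dimmer H2-Aa probe set gave 0.27 and -0.53, an interaction of 0.80 (unadjusted p = 0.129). C1qb, a chain of complement C1q made by macrophages, was called lower in NTg gastrocnemius at -0.73 (adjusted p = 0.0226) and stood at 0.09 in SOD1 mice. Its arrays read 6.49, 6.81, 6.11 and 6.36 in NTg gastrocnemius, 6.93, 7.42, 7.04 and 7.32 in NTg triceps, and 7.17 to 7.64 and 7.13 to 7.41 in the SOD1 muscles. Grn, progranulin, had NTg and SOD1 differences of -0.67 (adjusted p = 0.0456) and 0.15. In the same order, Dpt, a matrix protein of fibroblasts, differed by -0.90 and -0.22, and Hsph1, a heat shock protein, by -0.75 and -0.51. A dimmer Hsph1 probe set gave only -0.12 in NTg mice (adjusted p = 0.869). Each of these 4 NTg calls was lost without NTg triceps replicate 2 (adjusted p from 0.107 to 0.193), and in all without 5 to 7 of the 8 NTg arrays in turn. Those of Grn, Dpt and Hsph1 were lost as well after quantile normalization (adjusted p from 0.0629 to 0.0683), with the 75th percentile subtracted and without the trend in limma, and those of C1qb and Dpt with the 8 NTg arrays fitted alone.

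**Figure D4:**
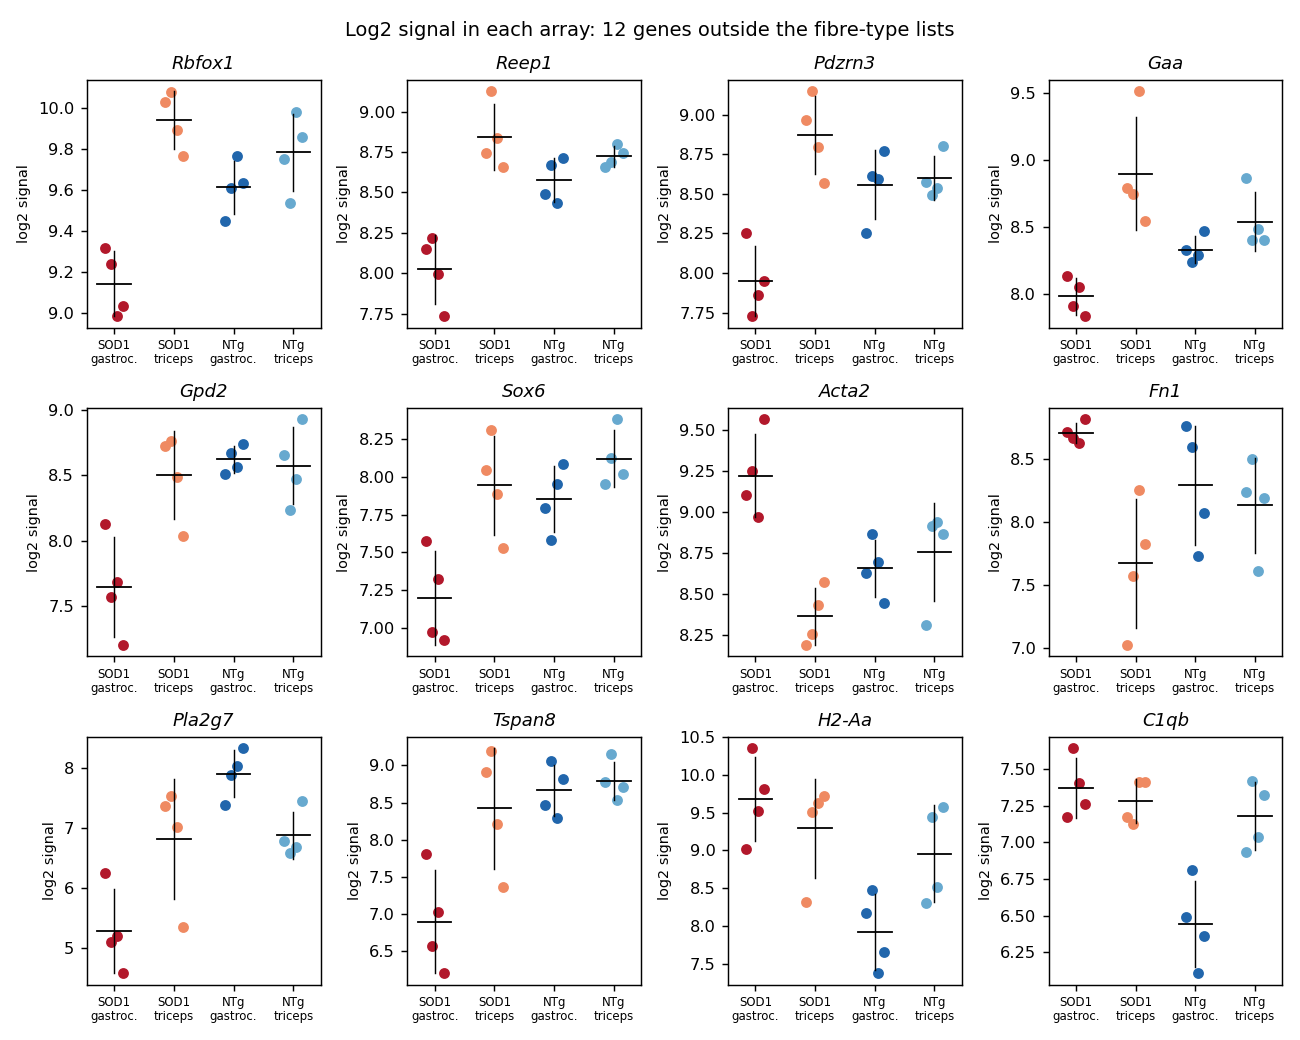
Log2 signal of 12 genes outside the slow-fibre and fast-fibre lists in the 4 arrays of each group (points), with group mean (horizontal line) and SD (vertical line). Rbfox1, Reep1, Pdzrn3 and Gaa lie lower in SOD1 gastrocnemius than in SOD1 triceps with no overlap, Acta2 and Fn1 lie higher, and C1qb reads 6.11 to 6.81 in NTg gastrocnemius, below the other groups.

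Extracellular matrix genes gave 3 calls among 32 tested, all higher in SOD1 gastrocnemius, where 1.92% of all genes were called higher. None was called in NTg mice, with medians of 0.40 and -0.19, and the interaction was positive for all 32 with a median of 0.52. Fn1, fibronectin, measured 8.72, 8.67, 8.63 and 8.81 in SOD1 gastrocnemius and 7.03, 7.57, 8.26 and 7.83 in triceps, a difference of 1.03 ± 0.26 (adjusted p = 0.0312) against 0.16 in NTg mice. Mmp2, a matrix metalloproteinase, differed by 0.99 (adjusted p = 0.0496) and Bgn, the proteoglycan biglycan, by 0.70 (adjusted p = 0.0338). No matrix gene was called without gastrocnemius replicates 1, 2, 3 or 4 or triceps replicates 1 or 2, while the median interaction stayed between 0.36 and 0.72 and positive for all 32 as any of the 16 arrays was left out. The summed signal of the list was 11909 to 14037 in SOD1 gastrocnemius and 7303 to 13029 in SOD1 triceps, which overlap. Beside it, 11 of 12 fibroblast markers had positive interactions with a median of 0.49, and their sums were 7867 to 8465 in SOD1 gastrocnemius, 6763 to 9948 in SOD1 triceps, 6027 to 8044 in NTg gastrocnemius and 7663 to 10722 in NTg triceps. All 6 tested adipocyte markers were positive as well, with a median of 0.70 and sums over the 8 on the array of 7841 to 11888, 5585 to 15539, 8619 to 11083 and 9975 to 13975 in the same order. The adipocyte list holds Car3, counted above among the slow-fibre genes, so these sums are not those of fat cells alone. The part of these cell types in the matrix values was not tested.

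Macrophage markers gave 1 call in each genotype. Over all genes 1.92% were called higher in SOD1 gastrocnemius and 0.207% lower in NTg gastrocnemius. Of 11 tested markers, Laptm5, a lysosomal membrane protein of leukocytes, was called higher in SOD1 gastrocnemius (0.81, adjusted p = 0.0484) and C1qb lower in NTg gastrocnemius. The median was 0.23 in SOD1 and -0.56 in NTg mice, and all 11 interactions were positive with a median of 0.82 (0.67 to 0.99 as single arrays were left out). The summed signal of the 16 markers on the array was 1071 to 1457 in NTg gastrocnemius, below the 1530 to 2577 in NTg triceps. In SOD1 mice the sums overlapped, at 2068 to 3012 in gastrocnemius and 1445 to 3075 in triceps. The Laptm5 call was lost without triceps replicate 2 (adjusted p = 0.144), in all without 6 of the 8 arrays in turn, and after quantile normalization.

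Among 9 tested smooth muscle and pericyte markers 2 were called higher in SOD1 gastrocnemius, where 1.92% of all genes were called higher. Acta2, smooth muscle actin, measured 9.10, 9.25, 8.97 and 9.57 in SOD1 gastrocnemius and 8.19, 8.25, 8.43 and 8.57 in triceps with no overlap. Its difference was 0.86 ± 0.19 (adjusted p = 0.0193) against -0.10 in NTg mice. The interaction of 0.96 (unadjusted p = 0.00208) was not called. Acta2 was named for its SOD1 call, and the interaction contains that difference, so this p-value is no separate evidence. Tagln, another smooth muscle protein, differed by 1.06 (adjusted p = 0.0337) and 0.37. The summed signal of the 10 smooth muscle and pericyte markers was 5808 to 6707 in SOD1 gastrocnemius and 4433 to 5101 in SOD1 triceps, against 5675 to 6150 and 4889 to 6370 in NTg mice. Called members of other lists were Sdc4, a syndecan listed for satellite cells (1.26, adjusted p = 0.0432), and Thbs4, a tendon thrombospondin (1.06, adjusted p = 0.0463). Ccn2, a matrix growth factor listed with the immediate-early genes, differed by 1.31 (adjusted p = 0.0296). Tendon markers summed to 1067 to 1356 in SOD1 gastrocnemius and 605 to 1007 in triceps, and keratins of skin to 91.7 to 509 and 52.1 to 106. These 5 calls were lost without triceps replicate 2 (adjusted p from 0.0891 to 0.184), and in all without 4 to 7 of the 8 arrays in turn. The part of connective tissue, vessel, nerve or skin content in the differences between the muscles was not tested.

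**Figure D5:**
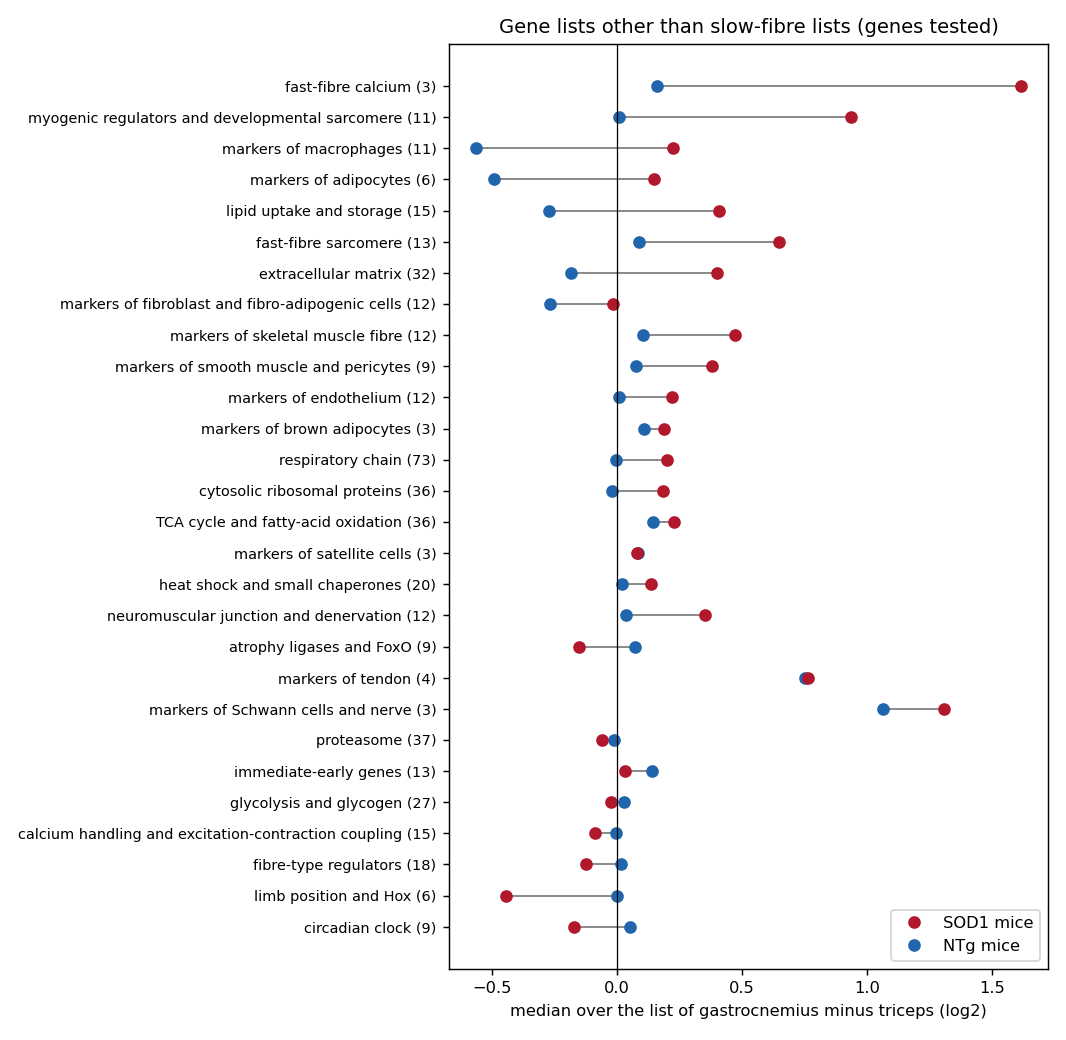
For each gene list outside the slow-fibre lists (number of genes tested in brackets), points give the median gastrocnemius minus triceps difference (log2) in SOD1 mice (red) and NTg mice (blue), ordered by the median interaction. Matrix genes sit at 0.40 and -0.19, macrophage markers at 0.23 and -0.56, fast-fibre calcium genes at 1.62 and 0.16, and proteasome and glycolysis genes near 0 in both.

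Genes of denervated and regenerating fibres varied widely within the SOD1 groups. Of 12 junction and denervation genes none was called in SOD1 mice. Chrna1, the acetylcholine receptor alpha subunit, measured 8.57, 10.23, 10.30 and 10.85 in SOD1 gastrocnemius and 7.59, 8.86, 8.62 and 11.03 in triceps, and 6.20 to 6.81 and 5.81 to 6.05 in the NTg muscles. The SOD1 groups overlapped, with triceps replicate 4 the highest of all, and the difference of 0.96 had an adjusted p of 0.49. Of 11 myogenic and developmental genes Myl4, an embryonic and atrial light chain, was called higher, while 1.92% of all genes were. It measured 8.03, 9.41, 9.44 and 9.37 and 6.52, 6.86, 6.67 and 8.92. The difference was 1.82 (adjusted p = 0.0265) against 1.55 in NTg mice (adjusted p = 0.0771). The median of that list was 0.94 in SOD1 and 0.01 in NTg mice, and up to 4 members were called as single arrays were left out. The Myl4 call was lost without triceps replicate 2 (adjusted p = 0.111) and in all without 6 of the 8 arrays in turn.

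Lists of limb position and of protein breakdown were read as well, though not every list examined is described here. Hoxa9, a patterning factor, was lower in SOD1 gastrocnemius (6.33, 5.81, 6.30 and 6.41) than in triceps (6.58, 6.95, 6.74 and 7.15), with a difference of -0.65 (adjusted p = 0.0301), and the NTg difference of -0.54 had an adjusted p of 0.101 with no overlap. Lbx1, a homeobox factor of migrating limb muscle precursors, differed by -0.56 (adjusted p = 0.0406) and 0.03. Trim54, a muscle ring finger protein, was the only called member of 9 atrophy and FoxO genes, while 2.86% of all genes were called lower. It differed by -0.51 (adjusted p = 0.0469) against 0.19. All 3 calls were lost without triceps replicate 2 (adjusted p from 0.122 to 0.141) and without gastrocnemius replicate 2, those of Lbx1 and Trim54 without 4 further arrays and under both other scalings. None of 37 proteasome, 36 ribosomal protein, 15 calcium handling, 9 clock or 12 endothelial genes was called in either genotype. The medians of the proteasome list were -0.06 and -0.01, and those of the ribosomal protein list 0.18 and -0.02. With quantile normalization the ribosomal medians were -0.04 and -0.01, so the sign in SOD1 mice depends on the scaling, as does that of the proteasome median in NTg mice (0.02).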

How the data were processed

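Muscle RNA was measured on 20 Affymetrix mouse arrays. The authors deposited 1 log2 signal per probe set and array, for which the submitters' processing notes name MAS5 and no version or scaling target. Array medians of the deposited log2 values lay between 6.61 and 6.76, and values ran from -3.66 to 13.3. The number of arrays limits the precision, and p-values set a difference against the spread between arrays within the groups.

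Of 10748 probe sets, 9874 had 1 gene symbol, 387 several and 487 none, and the symbols of 9862 matched RefSeq. Probe sets in the bottom 30% of mean signal (under 5.88) were dropped, which kept 7523. Each of 4832 genes was read from 1 probe set, the brightest of those with 1 symbol. limma 3.58.1 in R 4.3.3 fitted 5 group means to all 20 arrays (lmFit, eBayes with trend, 15 residual degrees of freedom), after being tested on simulated data. The design text gives the same 4 mice per genotype for both muscles, but which array belongs to which mouse is not known, and the fit treats the arrays as independent. Contrasts were gastrocnemius minus triceps in SOD1 mice, the same in NTg mice, and their difference (interaction). Benjamini-Hochberg adjustment ran over the 7523 probe sets, with 0.05 as the threshold.

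Named genes were the largest 12 differences in each direction among called SOD1 genes with non-overlapping arrays, 6 in each direction for NTg mice, up to 4 by size for the interaction with an unadjusted p under 0.01, all tested fibre-type genes, and up to 4 called genes of each other list. Pdlim1, Lmod2, Actn2, Lmcd1, Fxyd6, Homer2, Pla2g12a, Dnaja4 and Xpo7 were added once their values were known. The genes and lists were chosen with earlier results of these data known. Alternatives covered scaling, filters, blocks, array weights, a floor and each array left out in turn. Figures were drawn with matplotlib 3.10.9.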

Additional observations from a re-analysis of the deposited data

Results flagged for a closer look

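Of 408 groups of 4 arrays examined for the named genes, 26 held an array that stood far from the other 3 by Dixon's criterion. Chance gives about 5% of groups, or 1 in 20, and values here are log2 signals.

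In SOD1 gastrocnemius these were Myh7 in replicate 3 (10.53, the lowest), Tpm3 in replicate 3 (10.11, the lowest), B3galnt2 in replicate 4 (7.43, the lowest), Mb in replicate 4 (11.62, the lowest), Tnnc2 in replicate 4 (11.47, the lowest), Myl4 in replicate 1 (8.03, the lowest), Slc25a20 in replicate 3 (8.98, the lowest), Rora in replicate 1 (8.81, the highest), Mmp2 in replicate 2 (7.69, the lowest), Egfl7 in replicate 4 (7.05, the lowest), Ckm in replicate 4 (11.86, the lowest) and Acta1 in replicate 4 (11.62, the lowest). Replicate 4 supplied 6 of them, among them the muscle genes Mb, Tnnc2, Ckm and Acta1, each at its lowest there.

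In SOD1 triceps they were Bdh1 in replicate 2 (3.22, the lowest), Rida in replicate 2 (6.94, the highest), H2-Aa in replicate 1 (8.32, the lowest), Casq2 in replicate 4 (7.31, the highest), Tpm1 in replicate 2 (7.64, the lowest), Myl4 in replicate 4 (8.92, the highest) and Lipe in replicate 3 (8.02, the highest). In NTg gastrocnemius they were Tnnc1 in replicate 2 (10.14, the lowest) and Rida in replicate 4 (6.39, the highest). In NTg triceps they were Myh2 in replicate 3 (12.89, the highest), Thbs4 in replicate 4 (6.25, the lowest), Tagln in replicate 4 (6.76, the highest), Acta2 in replicate 1 (8.31, the lowest) and Sdc4 in replicate 4 (5.94, the lowest). Replicate 4 of NTg triceps, whose description names the other muscle, supplied 3 of these.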

How the results depend on the processing

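No difference changed sign among the 77 calls of named genes under any alternative run, and other called genes were not followed. The medians of the slow-fibre and fast-fibre sarcomere lists moved by less than the replicate spread. Counts of called probe sets moved more. In SOD1 mice 364 became 54 with only the arrays compared, 85 with a 2-fold threshold added and 1249 with array weights. In NTg mice 129 became 80 with the 60% filter, 65 with a 2-fold threshold and 360 with array weights. Array weights gave 18 interaction calls and 107 calls shared by both genotypes, against 0 and 41. Leaving out each array in turn gave 45 to 828 calls in SOD1 mice, 30 to 327 in NTg mice, 0 to 34 for the interaction and 21 to 53 shared. The slow-fibre sarcomere median then ranged from 4.78 to 5.98 in SOD1 and 4.27 to 5.15 in NTg mice, and the fast-fibre median from 0.52 to 0.82 and -0.09 to 0.25. The 77 calls of named genes were kept in 889 and lost in 102 of the gene and setting pairs with every array in place, and kept in 377 and lost in 239 with 1 array of the comparison left out. The cause of these moves was not tested. Low signals limit the folds of genes that are dim in triceps.

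With the replicate number as a block, 884 probe sets were called in SOD1 mice, 334 in NTg mice, 1 for the interaction and 113 in both. As a random block (correlation 0.22) it gave 916, 375 and 117 shared. The numbers were not taken as pairs: the deviations of same-numbered arrays correlated at -0.10 to 0.62 in SOD1 mice (2 of 4 over 0.1) and at -0.09 to 0.24 in NTg mice (3 of 4), and 2 of 4 in each genotype correlated best with their own number.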

Other observations

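Some genes fell under the filter on low signals and were not tested, so they are given as mean log2 signals ± SD (n = 4) in SOD1 gastrocnemius, SOD1 triceps, NTg gastrocnemius and NTg triceps, in that order. Hoxd10, a patterning factor of the hind limb, read 3.42 ± 0.67, 0.78 ± 0.71, 4.95 ± 0.50 and 0.50 ± 0.54, with every gastrocnemius array above every triceps array in both genotypes. Irx3, an Iroquois homeobox factor, read 5.43 ± 0.18, 6.11 ± 0.25, 5.16 ± 0.16 and 6.25 ± 0.37, and Irx5 read 4.46 ± 0.55, 5.26 ± 0.14, 4.13 ± 0.51 and 5.70 ± 0.28, both lower in gastrocnemius.

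Genes of embryonic or denervated muscle among these were high in some SOD1 arrays. Myh3, the embryonic myosin, read 7.73 ± 0.84, 5.98 ± 1.52, 4.67 ± 0.84 and 2.75 ± 1.41. Chrng, the fetal acetylcholine receptor subunit, read 6.90 ± 1.02, 3.82 ± 3.39, 1.52 ± 0.45 and 0.89 ± 0.69, and its SOD1 triceps arrays ran from 0.96 to 8.65. Runx1, a transcription factor induced by denervation, read 7.11 ± 0.89, 5.47 ± 1.85, 3.29 ± 0.68 and 1.73 ± 1.20. Their SOD1 triceps arrays spread widely, and the SOD1 groups overlapped in all 3 genes.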
